A study of Mus musculus with 6 samples.

Results

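The thioredoxin and glutathione systems and the other antioxidant genes were examined in liver sinusoidal endothelial cells (LSECs) with and without *Txnip*. The 50 genes were taken by name from 8 roles: thioredoxins and their reductases, peroxiredoxins and repair enzymes, glutaredoxins, glutathione synthesis and recycling, glutathione peroxidases, glutathione transferases, superoxide and hydrogen peroxide enzymes, and the regulators of the NRF2 pathway with a quinone reductase. All 50 were found among the 23282 gene rows counted, and 46 had enough reads to be among the 11583 genes tested. The 4 left out were *Glrx3*, *Gsta4*, *Gstt1* and *Sod3*, each with at most 14 reads in any library.

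RNA of LSECs was sequenced from the 3′ end (QuantSeq) in 3 libraries of *Txnip*-/- cells and 3 of wild-type (WT) cells. The *Txnip*-/- mice lacked the gene in all tissues on a C57BL/6J background, and the controls were C57BL/6J mice. LSECs were collected after collagenase perfusion of the liver with magnetic beads against CD146, an endothelial surface protein. Because the deletion was not limited to the endothelium, the cells had developed in a liver in which every cell type lacked *Txnip*. The study kept its animals on standard chow and describes culture of the bead-selected LSECs in an endothelial growth medium. The age and sex of the mice used for these libraries are not given in the sources used here. Nor do these say whether, or for how long, the sequenced cells were cultured. The study describes replicate mice of each genotype, but the labels do not tie a library to 1 mouse or to a pool. The p-values therefore measure the spread between these libraries, part of which may be technical.

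TXNIP is an arrestin-like protein that binds reduced thioredoxin and holds it inactive. Thioredoxin passes electrons from NADPH, through thioredoxin reductase, to peroxiredoxins and other oxidised proteins, while glutathione does the same for glutathione peroxidases and glutaredoxins and is joined to reactive compounds by glutathione transferases. Many of these genes carry antioxidant response elements, the DNA sites of the transcription factor NRF2, which KEAP1 sends to degradation in unstressed cells. Sinusoidal endothelial cells line the blood vessels of the liver lobule, take up waste molecules from blood and meet oxidants formed when the liver handles alcohol.

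The libraries held between 9147764 and 10193952 counted reads. Levels are given in CPM, the read counts of each gene scaled to a common library size with trimmed mean of M values (TMM) factors. The number of 3′ tags does not grow with the length of a transcript, so CPM can be compared between genes. Genes whose 3′ ends match another locus, named below, are an exception, because multiple alignments were counted too. A count of 3 reads, the limit that a count of 0 allows, corresponded to between 0.286 and 0.335 CPM and covers counting error only. The 50 genes together took between 0.574% and 0.603% of the reads of a library. WT replicates 1 and 2 stood close together and WT replicate 3 apart from them. The root mean square log2 difference over the redox genes was 0.21 between WT replicates 1 and 2, and 0.48 and 0.42 from these to WT replicate 3. It was 0.29 to 0.37 among the *Txnip*-/- libraries. From these, WT replicates 1 and 2 lay 0.38 to 0.51 away and WT replicate 3 lay 0.59 to 0.65 away. Over all genes tested, the *Txnip*-/- libraries lay 0.67 to 0.68 from each other. They lay 0.63 to 0.66 from WT replicates 1 and 2, and 0.72 to 0.74 from WT replicate 3. The ribosomal RNA precursor *Rn45s* took 10.03% and 9.68% of the reads in WT replicates 1 and 2, 17.8% in WT replicate 3, and between 16.8% and 18.6% in the *Txnip*-/- libraries.

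*Txnip* itself, on chromosome 3 (GRCm38, chr3:96557957-96561883, plus strand), was counted 269, 216 and 191 times in the *Txnip*-/- libraries and 1901, 2019 and 1994 times in the WT libraries. The level of *Txnip* fell from 196 ± 13.3 CPM in WT to 24.2 ± 5.15 CPM in *Txnip*-/- LSECs (SD, n = 3), a log2 fold change of -3.02 (SE 0.14, adjusted p = 6.94e-10). All 6 libraries therefore followed their labels. Which part of the gene the knockout removes is not given in the sources used here, so what the remaining 3′ reads represent is unknown.

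The scavenger receptors *Stab1* and *Stab2*, taken here as the defining LSEC markers, were present in every library. They were at 254 ± 16.1 and 189 ± 5.36 CPM in *Txnip*-/- and at 349 ± 24.2 and 243 ± 11.1 CPM in WT cells. All 20 LSEC markers passed the read filter and had lower means in *Txnip*-/- cells. Of these, 3 fell past the test by edgeR, 5 by DESeq2 and 4 by limma. Their summed level was 6822 ± 248 CPM in *Txnip*-/- and 8810 ± 958 CPM in WT cells. The most abundant LSEC marker, the hyaluronan receptor *Lyve1*, read 1475, 1642 and 1976 CPM in the *Txnip*-/- libraries and 3482, 3780 and 1520 CPM in the WT libraries, so that WT replicate 3 lay among the *Txnip*-/- libraries.

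Markers of macrophages and Kupffer cells moved further. Of 23 such markers in the files, 20 were tested, 19 had lower means in *Txnip*-/- cells and 15 fell past the test. Their summed level was 382, 385 and 417 CPM in the *Txnip*-/- libraries and 944, 910 and 927 CPM in the WT libraries. The scavenger receptor *Marco* was the most abundant of them, at 83.2 ± 7.12 CPM in *Txnip*-/- and 175 ± 3.86 CPM in WT cells. Neither defining marker was at 0. *Adgre1* (F4/80) read 2.21 ± 1.98 CPM in *Txnip*-/- and 8.86 ± 0.419 CPM in WT cells, and the Kupffer cell lectin *Clec4f* read 7.17 ± 2.96 and 15.9 ± 4.45 CPM. In the study's isolation, Kupffer cells were the fraction that the CD146 beads did not select. In these bulk libraries, fewer cells of a type and less RNA per cell cannot be told apart, and the part of macrophage RNA in the redox results was not tested.

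Markers of other cell types were scarce. The 14 stellate cell and fibroblast markers summed to 89.2 ± 12.1 CPM in *Txnip*-/- and 55.0 ± 2.54 CPM in WT cells. Of 11 tested, 10 had higher means in *Txnip*-/- cells and 1 a lower mean. By edgeR 2 rose, *Dcn* and *Acta2*, and 3 rose by DESeq2 and by limma. The most abundant was the proteoglycan *Dcn*, at 30.6 ± 2.66 against 15.4 ± 1.55 CPM. *Acta2* was at 14.5 ± 1.87 against 5.22 ± 0.912 CPM, with a log2 fold change of 1.47 (SE 0.27, adjusted p = 0.00677). The defining stellate markers were low, *Lrat* at no more than 2.12 CPM in any library and at 0 in WT replicates 2 and 3, and *Des* at no more than 3.49 CPM. The 15 hepatocyte markers summed to 65.6 ± 3.81 and 54.8 ± 0.363 CPM, with 0 of 9 tested past the threshold by edgeR, DESeq2 or limma (1 at an unadjusted p under 0.05) and *Alb*, the most abundant and one of the defining markers, at 20.3 ± 7.37 and 22.4 ± 1.78 CPM. *Apoa1*, the other defining marker, read 13.3 ± 3.60 and 8.60 ± 0.246 CPM. The 9 neutrophil markers summed to at most 1.63 CPM in any library, led by *S100a8*, with *Elane* at 0 in all 6. The 11 lymphocyte markers reached at most 0.846 CPM, led by *Cd79a*, with *Cd3e* at 0 in all 6. The 6 cholangiocyte markers reached at most 7.83 CPM, led by *Cftr*, with *Krt19* at no more than 2.33 and *Epcam* at no more than 2.68 CPM.

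Few of the redox genes passed the test, but their share was larger than that of all genes. No test was made over the list, whose genes were chosen with earlier results of these data known. A gene was called where the Benjamini-Hochberg adjusted p of edgeR's quasi-likelihood test was under 0.05 and the fold change above 1.3. By this rule 3 of the 46 redox genes tested were called (6.52%), against 1.44% of all genes tested. The peroxiredoxin *Prdx6* and the mitochondrial superoxide dismutase *Sod2* rose, against 0.509% of all genes called higher, and the mu class glutathione transferase *Gstm1* fell, against 0.932% called lower. The thioredoxin reductase *Txnrd1* met the adjusted p alone, as did 1.55% of all genes, with a fold change of 1.28. The 3 *Txnip*-/- libraries did not overlap the 3 WT libraries for 12 redox genes (26.1%), 8 higher and 4 lower. Of all genes tested, 17.4% showed no overlap (8.43% higher and 8.94% lower). An unadjusted p under 0.05 was reached by 13 redox genes (28.3%), 9 higher and 4 lower, and by 11.5% of all genes (5.48% higher and 6.05% lower). The mean was higher in *Txnip*-/- cells for 28 of the 46 genes and lower for 18. The median log2 fold change of the 46 was 0.08, beside -2.75e-05 for all genes tested. The range ran from -0.69 for *Sesn1* to 2.05 for *Nox4*, neither past the test, and *Nox4* had at most 22 reads in any library.

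**Figure D1:**
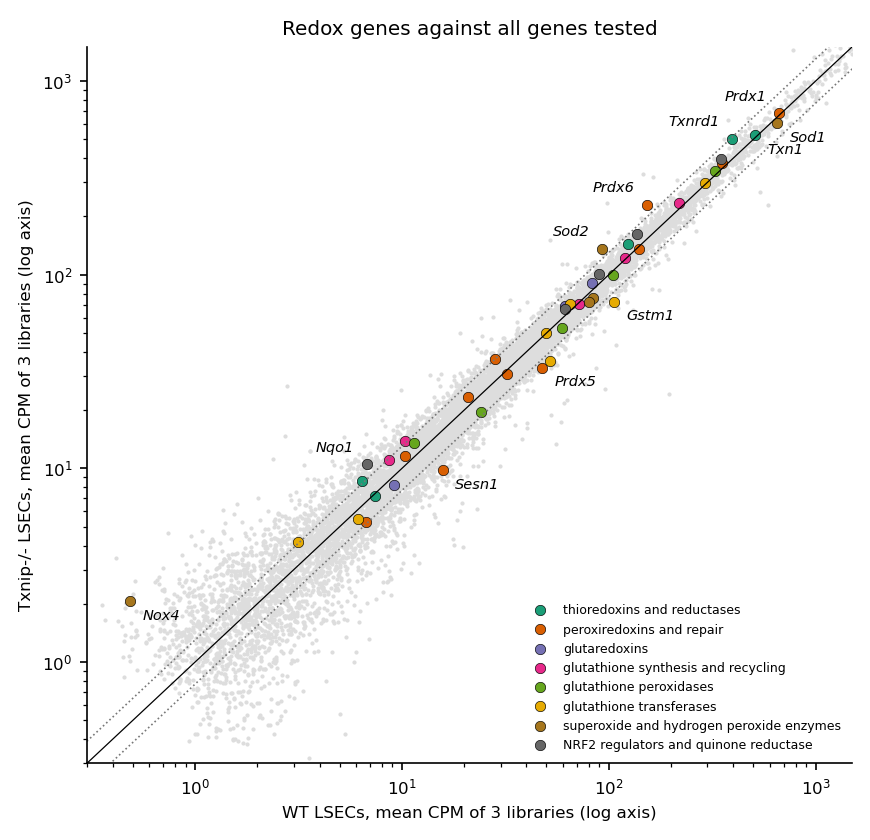
Mean level of each gene in WT (x axis) and Txnip-/- LSECs (y axis), in CPM on log axes, over 3 libraries each; grey points are all genes tested, coloured points are the 46 redox genes by role, the solid line marks equal levels and the dotted lines a 1.3-fold difference (genes beyond the ends of the axes are not drawn). Most redox genes lie between the dotted lines; the genes above them include Nox4 and Nqo1, which did not pass the test, beside Prdx6 and Sod2, and those below are Sesn1, Prdx5 and Gstm2, which did not pass the test, and Gstm1.

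The redox genes differed far more from each other than between genotypes. Over all 6 libraries, 16 of the 50 had a mean level above 100 CPM, 21 lay between 10 and 100 CPM, and 13 were under 10 CPM. The cytosolic peroxiredoxin *Prdx1* was the most abundant (673 CPM), followed by the copper-zinc superoxide dismutase *Sod1* (631), cytosolic thioredoxin *Txn1* (516), *Txnrd1* (448), *Nfe2l2*, which encodes NRF2 (372), and sulfiredoxin *Srxn1* (365 CPM). These 6 genes held 50.8% of the summed level of the 50. In each of the 6 libraries *Sod1* was above *Txn1*, *Txn1* above *Txnrd1*, and *Txnrd1* above *Nfe2l2*. The order of *Prdx1* and *Sod1*, and that of *Nfe2l2* and *Srxn1*, was not the same in every library. The mitochondrial thioredoxin reductase *Txnrd2* (7.32 CPM), NADPH oxidase 4 (*Nox4*, 1.28 CPM) and the extracellular superoxide dismutase *Sod3* (0.722 CPM) were among the lowest.

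**Figure D2:**
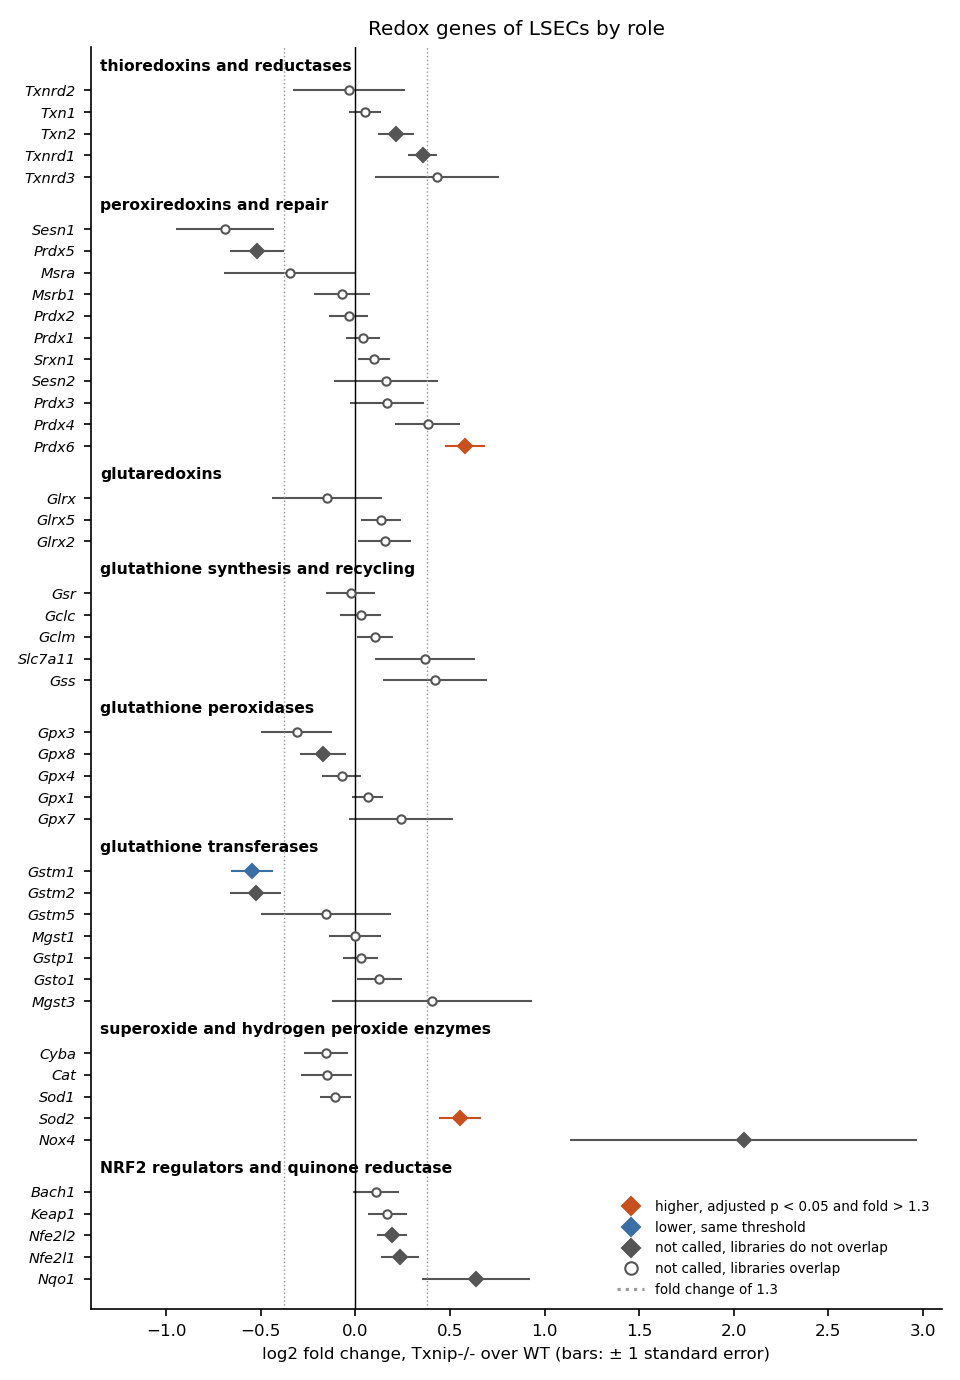
Log2 fold change of Txnip-/- over WT (x axis) for the 46 redox genes tested, grouped by role, with bars of 1 standard error. Prdx6 (0.58) and Sod2 (0.55) lie to the right and Gstm1 (-0.55) to the left; Nox4 (2.05) has a standard error of 0.92.

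Thioredoxin itself did not pass the test, whereas its cytosolic reductase met the adjusted p. *Txn1*, the thioredoxin that TXNIP binds (chr4:57943373-57956411, minus strand), read 539, 528 and 511 CPM in the *Txnip*-/- libraries and 524, 540 and 456 CPM in the WT libraries. These levels overlapped, with WT replicate 3 the lowest of the 6. The log2 fold change of *Txn1* was 0.05, with a 95% confidence interval of -0.12 to 0.23 and an adjusted p of 0.889. *Txnrd1*, which reduces thioredoxin with NADPH (chr10:82833951-82897712, plus strand), read 499, 512 and 498 CPM in *Txnip*-/- and 391, 382 and 406 CPM in WT cells. Every *Txnip*-/- library was above every WT library, and the spread within a genotype was small (SD 8.03 and 12.3 CPM). The log2 fold change was 0.36 (SE 0.08, 95% interval 0.19 to 0.52, adjusted p = 0.0243). The fold of 1.28 kept *Txnrd1* outside the called genes, and the adjusted p lay between 0.104 and 0.163 without any one of the libraries other than WT replicate 3. Across 16 alternative fits the adjusted p of *Txnrd1* was under 0.05 in 8, and it was above 0.05 without normalisation factors. Without WT replicate 3 the log2 fold change was 0.38 and the adjusted p 0.00292, which made it a called gene.

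The mitochondrial branch was less clear. Mitochondrial thioredoxin *Txn2* (chr15:77915047-77929006, minus strand) read 135, 151 and 147 CPM in *Txnip*-/- and 124, 121 and 127 CPM in WT cells. The genotypes did not overlap, but the log2 fold change of 0.22 (SE 0.09) did not pass the test (adjusted p = 0.387). Its reductase *Txnrd2* read 8.15, 6.83 and 6.74 CPM against 7.20, 6.76 and 8.25 CPM, with a log2 fold change of -0.03 (SE 0.30, adjusted p = 0.981). *Txnrd3*, a thioredoxin-glutathione reductase, read 5.47, 11.6 and 8.77 CPM against 6.91, 6.76 and 5.50 CPM. Its levels overlapped, with a log2 fold change of 0.43 (SE 0.33, adjusted p = 0.682). The summed level of the 5 genes was 1189 ± 20.1 CPM in *Txnip*-/- and 1038 ± 30.0 CPM in WT cells, without overlap.

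**Figure D3:**
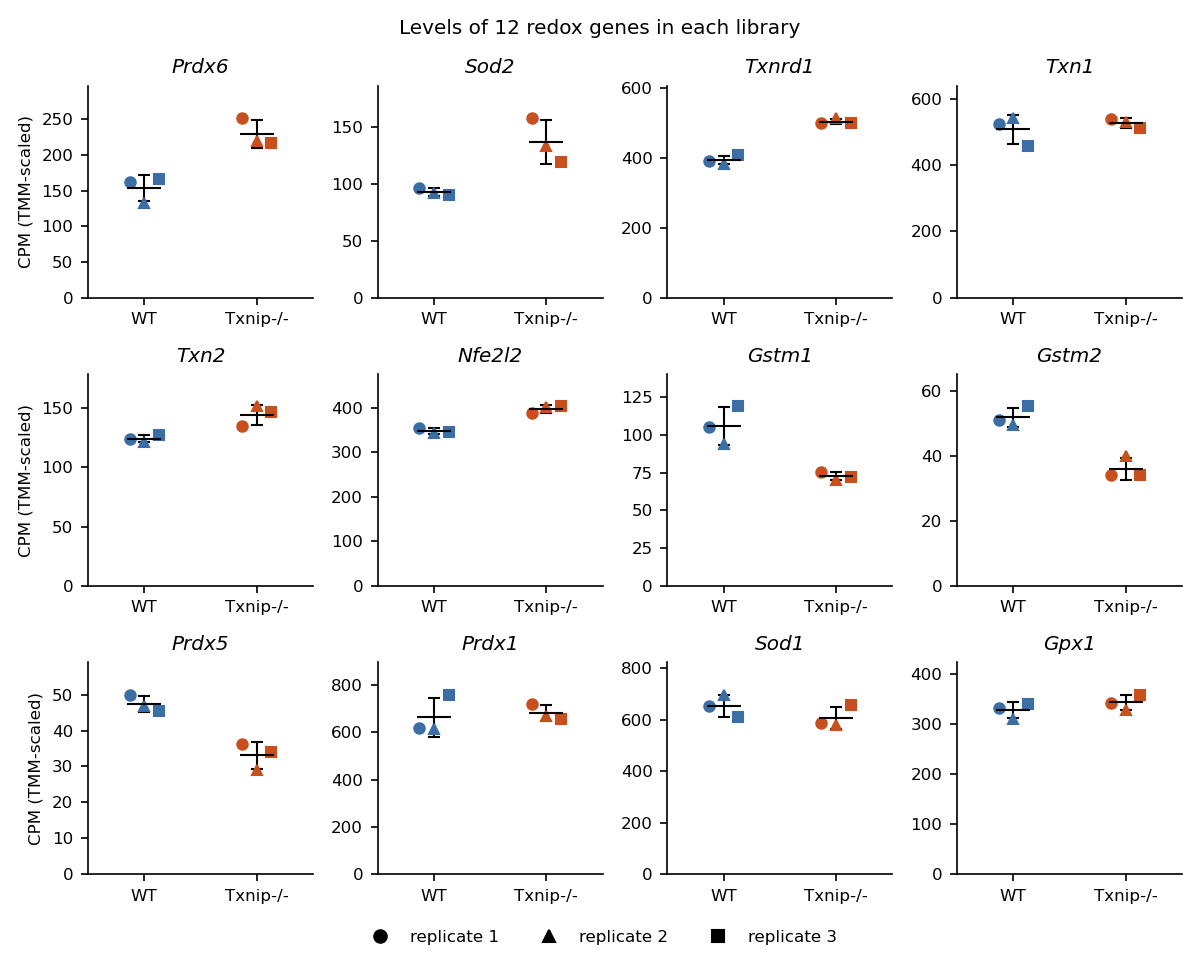
Level in CPM (y axis, from 0) in each WT and Txnip-/- library for 12 genes; each point is 1 library, its shape gives the replicate number, and the bars give the mean and SD of 3. The Txnip-/- libraries lie above all WT libraries for Txnrd1, Prdx6 and Sod2 and below them for Gstm1, and overlap them for Txn1.

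Of the peroxiredoxins, which break down hydrogen peroxide and lipid peroxides, *Prdx6* alone rose past the test among the 6 genes measured. *Prdx6*, the 1-Cys peroxiredoxin that also reduces phospholipid hydroperoxides (chr1:161240112-161251219, minus strand), read 252, 220 and 217 CPM in *Txnip*-/- and 162, 132 and 167 CPM in WT cells. The genotypes did not overlap, and *Txnip*-/- replicate 1 was the highest of the 6 libraries. The mean level was 229 ± 19.3 against 154 ± 18.7 CPM (SD, n = 3), 1.49-fold higher, with a log2 fold change of 0.58 (SE 0.11, adjusted p = 0.00624). The adjusted p was 0.0712 without *Txnip*-/- replicate 1 and 0.0587 without WT replicate 2, with log2 fold changes of 0.51 and 0.48.

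*Prdx1*, the most abundant redox gene, read 720, 669 and 656 CPM in *Txnip*-/- and 619, 615 and 759 CPM in WT cells, where WT replicate 3 was the highest of all. The log2 fold change of *Prdx1* was 0.04 (95% interval -0.15 to 0.23, adjusted p = 0.925). *Prdx5*, an atypical peroxiredoxin, lay in the other direction, with 36.3, 28.9 and 34.1 CPM in *Txnip*-/- and 50.03, 46.8 and 45.5 CPM in WT cells. All 3 *Txnip*-/- libraries were below the WT libraries, with a log2 fold change of -0.52 (SE 0.14) and an adjusted p of 0.0900 that missed the threshold. *Prdx4* of the endoplasmic reticulum had a log2 fold change of 0.38 and overlapped, with 27.4 CPM in *Txnip*-/- replicate 2 and at most 29.2 CPM in WT cells. *Prdx2* and mitochondrial *Prdx3* had log2 fold changes of -0.04 and 0.17. The 3′ end of *Prdx2* overlaps *Junb* on the opposite strand by 173 bases, and since the use of strand in counting is not stated, reads of the 2 genes there cannot be told apart.

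The repair genes did not pass the test. *Srxn1*, which restores over-oxidised peroxiredoxins, read 382, 385 and 366 CPM in *Txnip*-/- and 339, 379 and 339 CPM in WT cells, with a log2 fold change of 0.10. The methionine sulfoxide reductases *Msra* and *Msrb1* had log2 fold changes of -0.35 and -0.07. The sestrin *Sesn1* had the lowest log2 fold change of the 46 genes, -0.69 (SE 0.26, adjusted p = 0.283), at 9.78 ± 1.35 against 15.8 ± 4.57 CPM. *Sesn2* was at 11.6 ± 1.97 and 10.4 ± 3.13 CPM.

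Of the glutaredoxins and the genes of glutathione synthesis and recycling, 0 of 8 tested passed by edgeR, DESeq2 or limma, and 0 had an unadjusted p under 0.05 in edgeR. *Glrx5*, a mitochondrial glutaredoxin of iron-sulfur cluster assembly and the most abundant of its family, read 95.02, 93.1 and 85.5 CPM in *Txnip*-/- and 87.6, 85.1 and 76.5 CPM in WT cells. The levels overlapped, with a log2 fold change of 0.13 (SE 0.11, adjusted p = 0.700). *Glrx2* and *Glrx* had log2 fold changes of 0.16 and -0.15, and *Glrx3* was counted once in each of 2 libraries.

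*Gclm*, the modifier subunit of the ligase that sets the pace of glutathione synthesis, read 251, 224 and 232 CPM in *Txnip*-/- and 212, 204 and 241 CPM in WT cells. WT replicate 3 lay among the *Txnip*-/- libraries, and the log2 fold change was 0.10 (SE 0.09, adjusted p = 0.759). The catalytic subunit *Gclc* was at 122 ± 14.9 and 120 ± 5.602 CPM, with a 95% interval of the log2 fold change from -0.20 to 0.25. Glutathione synthetase *Gss* read 15.4, 16.5 and 9.62 CPM in *Txnip*-/- and 9.05, 8.29 and 13.8 CPM in WT cells. Replicate 3 crossed to the other genotype's range on both sides, and the log2 fold change was 0.42 (SE 0.28, adjusted p = 0.613). Glutathione reductase *Gsr* had a log2 fold change of -0.02 and the cystine importer *Slc7a11*, which supplies cysteine for glutathione, one of 0.37 at 11.1 ± 2.12 and 8.62 ± 0.871 CPM.

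The glutathione peroxidases summed to 529 ± 14.5 CPM in *Txnip*-/- and 528 ± 18.4 CPM in WT cells, and 0 of 5 passed by edgeR, DESeq2 or limma or had an unadjusted p under 0.05 in edgeR. *Gpx1*, the cytosolic enzyme and most abundant of the family, read 342, 329 and 358 CPM against 333, 310 and 341 CPM. The ranges overlapped, with a 95% interval of the log2 fold change from -0.11 to 0.24 (adjusted p = 0.856). The secreted enzyme *Gpx3* read 20.3, 19.7 and 18.5 CPM against 20.0, 23.7 and 28.9 CPM, with a log2 fold change of -0.31 (SE 0.19, adjusted p = 0.573). *Gpx8*, in the endoplasmic reticulum, did not overlap between genotypes, at 51.1, 51.4 and 55.9 CPM in *Txnip*-/- and 59.2, 63.0 and 56.3 CPM in WT cells, but its log2 fold change of -0.17 did not pass the test. *Gpx4*, which protects membrane lipids, and *Gpx7* had log2 fold changes of -0.07 and 0.24. The last 500 bases of *Gpx4* are 99.8% identical to those of a second locus, *Gpx4-ps2*, so its count is uncertain.

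Among the glutathione transferases, *Gstm1* of the mu class fell and the other 6 tested did not pass edgeR's test. *Gstm1* (chr3:108012255-108017973, minus strand) read 75.4, 70.2 and 72.4 CPM in *Txnip*-/- and 105, 94.0 and 119 CPM in WT cells. Every *Txnip*-/- library was below every WT library, and the *Txnip*-/- libraries were close together. The mean was 72.7 ± 2.58 against 106 ± 12.5 CPM, 31.5% lower, with a log2 fold change of -0.55 (SE 0.11, adjusted p = 0.0155). The adjusted p rose to between 0.0632 and 0.0896 on leaving out WT replicate 1 or any one of the 3 *Txnip*-/- replicates, with log2 fold changes between -0.57 and -0.52.

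*Gstm2* (chr3:107981702-107986453, minus strand) lies beside *Gstm1* and read 34.1, 39.9 and 34.1 CPM in *Txnip*-/- and 50.9, 49.6 and 55.2 CPM in WT cells. The genotypes did not overlap, but the log2 fold change of -0.53 (SE 0.13) missed the threshold at an adjusted p of 0.0635. *Gstm5* was low, at 5.48 ± 0.726 and 6.10 ± 1.02 CPM, with a log2 fold change of -0.16. The mu class genes lie together on chromosome 3 between 11.33 and 11.48 Mb from *Txnip*. No alignment to another gene of at least 75 bases and 95% identity was found in the last 500 bases of *Gstm1* or *Gstm2*. The identity was taken over the whole alignment. A closer stretch within a longer, less similar alignment would therefore have been missed.

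The pi class enzyme *Gstp1* was the most abundant transferase, at 311, 288 and 290 CPM in *Txnip*-/- and 269, 280 and 324 CPM in WT cells. The genotypes overlapped throughout, with a log2 fold change of 0.03 (95% interval -0.17 to 0.22, adjusted p = 0.947). *Gstp1* is 98.8% identical to *Gstp2* over its last 500 bases and both were counted at similar numbers, so the share of each is uncertain. *Gsto1*, *Mgst1* and *Mgst3* had log2 fold changes of 0.13, -0.0046 and 0.41 and did not pass the test. *Gsta4* was counted 6, 0 and 5 times in *Txnip*-/- and 6, 5 and 4 times in WT libraries, and *Gstt1* at most 3 times in any library.

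Of the enzymes of superoxide and hydrogen peroxide, *Sod2* rose while the cytosolic *Sod1* did not pass the test. *Sod2*, the manganese superoxide dismutase of mitochondria (chr17:13006846-13040063, plus strand), read 157, 133 and 119 CPM in *Txnip*-/- and 96.6, 91.9 and 90.0 CPM in WT cells. The genotypes did not overlap, with the WT libraries within a narrow range and the *Txnip*-/- libraries spread more widely. The mean was 136 ± 19.5 against 92.8 ± 3.37 CPM, 1.47-fold higher, with a log2 fold change of 0.55 (SE 0.11, adjusted p = 0.0136). The adjusted p was 0.113 without *Txnip*-/- replicate 1, 0.0612 without *Txnip*-/- replicate 2, 0.0572 without WT replicate 1 and 0.0735 without WT replicate 2, with log2 fold changes from 0.44 to 0.58. It was 0.0652 without normalisation factors. Part of the last 500 bases of *Sod2*, between 186 and 192 bases long, is at least 95.2% identical to stretches of 6 other genes, of which *Dld* had the most reads (up to 640).

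*Sod1* read 587, 580 and 658 CPM in *Txnip*-/- and 654, 697 and 612 CPM in WT cells. The ranges overlapped, and the log2 fold change was -0.11 (SE 0.08, 95% interval -0.28 to 0.07, adjusted p = 0.696). A processed pseudogene shares 428 of the last 500 bases of *Sod1* at 98.4% identity. Catalase (*Cat*) and *Cyba*, the shared p22phox subunit of NADPH oxidases, both had log2 fold changes of -0.15 and did not pass the test. *Nox4*, the hydrogen peroxide producing oxidase that pairs with p22phox, was counted 22, 20 and 16 times in *Txnip*-/- and 10, 5 and 0 times in WT libraries. The counts did not overlap, but the fitted log2 fold change of 2.05 (SE 0.92, adjusted p = 0.392) rested on few reads and did not pass the test. *Sod3* was counted 7, 14 and 0 times in *Txnip*-/- and 9, 12 and 1 times in WT libraries.

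The 5 genes of the NRF2 pathway all had higher means in *Txnip*-/- cells, 3 of them without overlap, and 0 passed by edgeR, DESeq2 or limma. An unadjusted p under 0.05 was reached by the same 3, *Nfe2l2*, *Nfe2l1* and *Nqo1*. Of all genes tested, 8.43% were higher without overlap and 5.48% were higher at an unadjusted p under 0.05. *Nfe2l2* (chr2:75675513-75704641, minus strand) read 388, 401 and 402 CPM in *Txnip*-/- and 354, 342 and 346 CPM in WT cells. The libraries of a genotype were close together and the genotypes did not overlap, with a log2 fold change of 0.19 (SE 0.08, 95% interval 0.03 to 0.36, adjusted p = 0.326). *Nfe2l1*, a related factor of proteasome and antioxidant genes, was at 162 ± 6.83 against 138 ± 15.1 CPM. *Nqo1*, a quinone reductase and long-used readout of NRF2, read 12.6, 9.07 and 9.84 CPM in *Txnip*-/- and 6.91, 5.43 and 7.93 CPM in WT cells. Its lowest *Txnip*-/- library was above its highest WT library, with a log2 fold change of 0.64 (SE 0.29, adjusted p = 0.396). *Keap1* had a log2 fold change of 0.17 and *Bach1*, a repressor at the same DNA sites, one of 0.11. The 5 genes summed to 737 ± 13.6 CPM in *Txnip*-/- and 643 ± 24.0 CPM in WT cells.

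The promoters of 44 of the 50 genes were read from RefSeq (GRCm38.p6), as windows from 250 bases before to 50 bases after the annotated start. The core of the antioxidant response element, TGACNNNGC on either strand, was found in 9 of the 44 genes (20.5%), beside 13.99% of 27025 genes with a window. They were *Gclm*, *Gstm5*, *Mgst1*, *Nfe2l2*, *Prdx1*, *Sesn2*, *Sod1*, *Srxn1* and *Txnrd1*. The AP-1 motif TGANTCA, which reads the same on both strands and can overlap the first motif, was found in 5 of the 44 genes (11.4%), beside 8.97% of all genes. Of the 3 called genes, *Prdx6* was not among those with a window, and neither *Sod2* nor *Gstm1* held the antioxidant motif in the bases read. The window of *Nqo1*, the readout of NRF2 described above, did not hold it either. The 250 bases before the start are shown for *Txnrd1*, which met the adjusted p, for *Nfe2l2*, for the most abundant gene *Prdx1* and for *Gstm1*, which fell. *Txnrd1* has 3 annotated windows and *Gstm1* has 2. The *Txnrd1* window with a match is shown, the other two held neither motif, and neither *Gstm1* window held one. The sequences are written 5′ to 3′ along the gene, with capitals marking either motif. The windows are chr10:82858956-82859205 (plus strand), chr2:75704664-75704913 (minus), chr4:116685349-116685598 (plus) and chr3:108017819-108018068 (minus).
Txnrd1: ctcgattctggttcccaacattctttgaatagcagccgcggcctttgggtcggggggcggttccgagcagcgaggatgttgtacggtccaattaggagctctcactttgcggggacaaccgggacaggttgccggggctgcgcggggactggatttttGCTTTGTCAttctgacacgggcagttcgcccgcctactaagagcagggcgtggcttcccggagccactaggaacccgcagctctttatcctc
Nfe2l2: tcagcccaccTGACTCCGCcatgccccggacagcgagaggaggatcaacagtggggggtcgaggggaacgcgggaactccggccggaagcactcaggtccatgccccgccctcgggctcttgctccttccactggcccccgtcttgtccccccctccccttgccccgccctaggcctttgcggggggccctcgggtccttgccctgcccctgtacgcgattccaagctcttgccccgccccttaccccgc
Prdx1: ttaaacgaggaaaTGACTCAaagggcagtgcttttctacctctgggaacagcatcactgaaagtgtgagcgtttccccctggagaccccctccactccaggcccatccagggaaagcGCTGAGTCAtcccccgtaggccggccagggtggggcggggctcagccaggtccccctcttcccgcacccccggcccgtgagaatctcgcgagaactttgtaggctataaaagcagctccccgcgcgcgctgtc
Gstm1: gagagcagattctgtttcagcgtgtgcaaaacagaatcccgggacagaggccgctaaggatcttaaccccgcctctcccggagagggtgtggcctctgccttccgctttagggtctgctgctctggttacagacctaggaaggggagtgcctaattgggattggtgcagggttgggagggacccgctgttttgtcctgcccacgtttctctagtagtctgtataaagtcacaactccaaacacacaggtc
In this *Txnrd1* window the match reads along the opposite strand and begins 92 bases before its start, and in *Nfe2l2* it begins 240 bases before it. In *Prdx1* the antioxidant motif, at 133 bases, overlaps an AP-1 motif, and a second AP-1 motif lies 237 bases before the start. *Txnrd1* met the adjusted p, *Nfe2l2* and *Prdx1* did not, and *Gstm1* fell. A match describes the sequence and is not evidence of a bound site. The lack of a match covers these windows only, because sequence further from the start was not searched.

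By role, the summed levels separated the genotypes in 2 of the 8 groups. The thioredoxins with their reductases and the NRF2 group were each 1.15-fold higher in *Txnip*-/- cells, with no overlap of libraries. The gene with the largest difference in mean level was *Txnrd1* in the first group (503 against 393 CPM) and *Nfe2l2* in the second (397 against 347 CPM). The peroxiredoxins and repair enzymes (1576 ± 56.0 against 1472 ± 95.6 CPM), the glutaredoxins (168 ± 10.4 against 154 ± 7.72 CPM) and glutathione synthesis and recycling (453 ± 17.5 against 430 ± 16.8 CPM) overlapped, each through WT replicate 3. The transferases (536 ± 17.0 against 574 ± 34.2 CPM) and the superoxide and hydrogen peroxide enzymes (895 ± 21.7 against 913 ± 45.0 CPM) overlapped as well. The macrophage markers, beside these, were at 0.426 of their WT level.

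**Figure D4:**
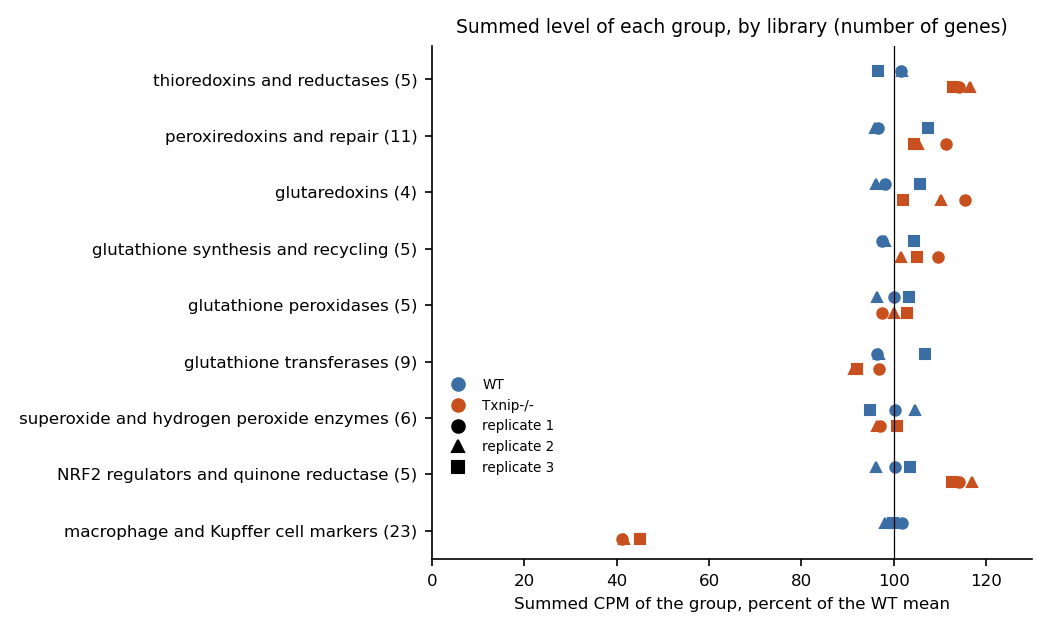
Summed CPM of each role group and of the macrophage and Kupffer cell markers in every library (x axis, percent of the WT mean); colour gives the genotype and shape the replicate number. The thioredoxin and NRF2 groups of the 3 Txnip-/- libraries lie to the right of all WT libraries, and the macrophage markers lie far to the left.

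A wider list of 157 other redox genes was read for the same pathways, and 132 of them were tested. Of these 3 fell and 0 rose by edgeR's test, against the same 1.44% of all genes, while an unadjusted p under 0.05 was reached by 12 higher and 13 lower, beside 5.48% and 6.05% of all genes. DESeq2 called 1 higher and 5 lower. Their median log2 fold change was -0.04. *Cybb*, the catalytic subunit of the phagocyte NADPH oxidase, read 6.03, 1.73 and 5.24 CPM in *Txnip*-/- and 19.6, 15.8 and 17.9 CPM in WT cells. The genotypes were far apart, with a log2 fold change of -2.04 (SE 0.34, adjusted p = 0.00313). *Alox5ap*, which leukocytes need to make leukotrienes, read 1.005, 0.612 and 0 CPM against 5.45, 5.24 and 4.34 CPM. It fell with an adjusted p of 0.0362, from a count of 0 in *Txnip*-/- replicate 3, and lost the call on leaving out any one of the libraries other than WT replicate 3. Without these libraries its adjusted p lay between 0.0581 and 0.216.

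*Aldh2*, the mitochondrial aldehyde dehydrogenase that clears acetaldehyde, read 170, 202 and 192 CPM in *Txnip*-/- and 235, 244 and 290 CPM in WT cells. The genotypes did not overlap, and *Aldh2* fell with a log2 fold change of -0.45 (SE 0.10, adjusted p = 0.0335). The call was lost on leaving out any one library. The adjusted p was then between 0.0572 and 0.201, except without WT replicate 3, where it was 0.0372 and the log2 fold change of -0.35 was under the threshold.

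The phagocyte oxidase genes *Ncf1* and *Rac2* had log2 fold changes of -1.70 and -1.76 and did not pass the test. *Cybb*, *Alox5ap*, *Ncf1* and *Rac2* are expressed chiefly in phagocytes, and the summed level of the macrophage markers, 19 of 20 tested with lower means, was lower in the same libraries. Their part in these values was not tested. The NADPH oxidase list had 9 of 11 genes with lower means, and its widely expressed member *Rac1* was at 692 ± 14.9 and 719 ± 24.9 CPM.

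The other NRF2 target genes had higher means in 16 of 27, with a median log2 fold change of 0.08. By edgeR or limma 0 were called. In edgeR 6 had an unadjusted p under 0.05 (22.2%), 5 higher and 1 lower, beside 11.5% of all genes. The genotypes did not overlap for 10 (37%), 8 higher and 2 lower, beside 17.4% of all genes. The 28 genes listed summed to 12887 ± 337 CPM in *Txnip*-/- and 11394 ± 519 CPM in WT cells, without overlap. DESeq2 called 1 higher and 1 lower. Their most abundant member, the iron-storing ferritin heavy chain *Fth1*, read 5808, 6378 and 5806 CPM in *Txnip*-/- and 4901, 4693 and 5104 CPM in WT cells. The genotypes did not overlap, and *Fth1* met the adjusted p (0.0227) with a log2 fold change of 0.29 that was below the fold threshold. The adjusted p was under 0.05 in 7 of 16 alternatives, and was 0.0738 with limma, 0.117 without normalisation factors and between 0.0833 and 0.136 without any one library other than WT replicate 3. Heme oxygenase *Hmox1*, a classical NRF2 target, was at 410 ± 82.3 and 421 ± 45.6 CPM. The metallothionein *Mt1*, a small metal-binding protein, read 930, 824 and 890 CPM in *Txnip*-/- and 719, 711 and 725 CPM in WT cells. Its relative *Mt2* read 561, 527 and 493 CPM against 412, 447 and 422 CPM. Neither overlapped between genotypes, but the log2 fold changes of 0.30 (SE 0.08) for both missed the threshold, with adjusted p-values of 0.0637 and 0.0852.

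On the lower side, the selenium carrier *Sepp1* read 2507, 2927 and 2850 CPM in *Txnip*-/- and 3657, 3612 and 3223 CPM in WT cells. It met the adjusted p (0.0249) at a log2 fold change of -0.34, below the fold threshold. The adjusted p was under 0.05 in 9 of 16 alternatives and between 0.0614 and 0.204 without any one library other than WT replicate 3. *Sepp1* was a called gene without WT replicate 3 and without normalisation factors, with log2 fold changes of -0.40 and -0.43. The epoxide hydrolase *Ephx1* read 47.6, 50.5 and 57.2 CPM against 69.0, 71.7 and 77.0 CPM, with a log2 fold change of -0.49 (SE 0.12, adjusted p = 0.0519). *Pink1*, a kinase that marks damaged mitochondria for removal, read 61.1, 55.7 and 49.4 CPM against 72.6, 77.2 and 72.0 CPM, with a log2 fold change of -0.42 (SE 0.12, adjusted p = 0.108). Neither *Ephx1* nor *Pink1* overlapped between genotypes or passed the test. The remaining lists of thioredoxin-fold genes, glutathione genes, NRF2 pathway regulators and stress enzymes had 10 of 30, 10 of 22, 4 of 16 and 12 of 26 genes with higher means.

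**Figure D5:**
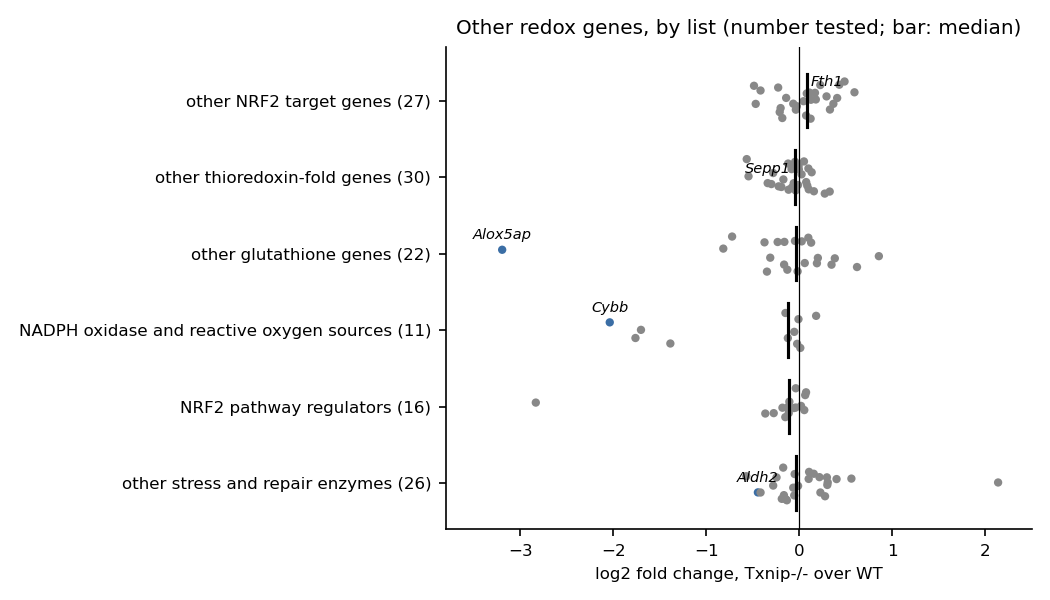
Log2 fold change of Txnip-/- over WT (x axis) for 132 other redox genes tested, by list; each point is 1 gene, blue points fell past the test and black bars mark the median of a list. Cybb (-2.04), Alox5ap (-3.19) and Aldh2 (-0.45) are the blue points, and most genes lie near 0.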

How the data were processed

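QuantSeq 3′ libraries were sequenced single-end, and the deposited files hold raw read counts per gene symbol for each library, which the authors made by aligning to mm10 (as the submitters' processing notes name it) with Bowtie2 and counting unique and multiple alignments with bedtools. Versions, annotation and use of strand are not given in the sources used here. Of the 23282 rows, 44 repeat a symbol and were kept apart.

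Counts were tested in edgeR 4.0.16 (R 4.3.3) with filterByExpr, TMM factors and the quasi-likelihood test, with no covariate, and p-values were adjusted by Benjamini-Hochberg over the 11583 genes tested. CPM values use the TMM-scaled totals of these genes. A call needed an adjusted p under 0.05 and a fold above 1.3, the study's threshold read as a fold. Intervals are 95% from the same fit. The 3-count floor is per library. The code was tested on simulated data. Alternatives were DESeq2 1.42.0, limma 3.58.1, other normalisations, filters and thresholds, a replicate block, and leaving out libraries.

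The genes, lists and markers were chosen with earlier results of these data known. Full values were given for *Txnip*, the called genes, the thioredoxins and reductases, and in each role the most abundant gene and that with the smallest p. For the other redox genes these were the called genes and the 3 higher and 3 lower with the smallest p among those not called. Other genes, such as *Prdx5*, *Gstm2* and *Nqo1*, were named after their values were seen. Positions are from GENCODE M21 (GRCm38) and promoter windows from RefSeq.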

Additional observations from a re-analysis of the deposited data

How the results depend on the processing

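The fall of *Txnip* kept its direction and its call in all 16 alternative fits, with log2 fold changes from -3.21 to -2.92, which is also the range over leaving out 1 library. Of the redox genes, 29 of 46 kept one sign in every alternative, and 38 of 734 gene and alternative pairs changed sign, none of them a called gene. The 3 called redox genes (*Prdx6*, *Sod2*, *Gstm1*) were also called with limma, other normalisation factors, *Rn45s* left out and a mean of at least 5 CPM. With DESeq2, with no filter on low counts, or at an adjusted p under 0.1, 5 were called, *Prdx5* and *Gstm2* being added. Without normalisation factors the count stayed at 3 with *Gstm2* in place of *Sod2*, so that 1 was higher and 2 lower, and the calls over all genes split into 35 higher and 145 lower instead of 59 and 108. Leaving out 1 library gave from 0 called redox genes (without *Txnip*-/- replicate 1) to 4 (without WT replicate 3), and with WT replicate 3 as the only WT library, a lone sample assumed to vary like the others, *Gstm1* alone was called (1).

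Over all genes, the 167 calls became 252 with DESeq2, 301 with no filter and 107 with WT replicate 3 as the only WT library, and 89 to 301 on leaving out 1 library, the highest without WT replicate 3. For the other redox genes, the 3 calls became 6 with DESeq2, 7 with no filter, 5 without normalisation factors, 5 with no fold threshold, 5 at an adjusted p under 0.1, and 1 to 6 on leaving out 1 library. *Cybb* was called in all 16 alternatives. The median log2 fold change of the redox genes moved from 0.08 to 0.053 with no filter, 0.058 at a mean of at least 5 CPM, -0.00041 without normalisation factors (where the median of all genes was -0.08) and -0.0062 with WT replicate 3 as the only WT library, and lay between 0.044 and 0.098 on leaving out 1 library. Redox genes without overlap numbered 15 by raw library totals, beside 12. The share of all genes by raw totals is not given here, so the 15 cannot be set against the 17.4% of the TMM-scaled levels.

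The replicate numbers did not pair the libraries: across genes, libraries sharing a number deviated from the mean of their group with correlations of -0.03, 0.02 and -0.05. With the replicate block the calls numbered 108 over all genes, 3 redox genes and 1 other redox gene. With the block the adjusted p of *Txnrd1* was 0.109, that of *Fth1* 0.111 and that of *Sepp1* 0.0937. The LSEC marker *Stab1* lost its call with the block, at an adjusted p of 0.0507. At this depth *Nox4*, *Nqo1* and *Txnrd2* had standard errors of 0.92, 0.29 and 0.30 on the log2 scale, so a change of the size seen for *Prdx6* (0.58) would not have been detectable. The causes of these shifts were not tested.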

Other observations

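The mu class transferases share chromosome 3 with *Txnip*, at a distance of 11.33 Mb for *Gstm5* and 11.45 Mb for *Gstm1*. Within 15 Mb of *Txnip*, a window chosen after the values were seen, 10 of 253 genes tested were called (3.95%), beside 164 of 11133 tested genes with a position (1.47%). The genes higher in *Txnip*-/- cells were the colony-stimulating factor *Csf1*, the intermediate filament gene *Nes*, *S100a6* and the sorting nexin *Snx27*. Those lower were *Gstm1*, the ribosomal protein gene *Rps3a1*, *S100a11*, *Plekho1*, and *Cd5l* and *Ctss*, which are on the macrophage marker list. *Csf1* was at 626 and 375 CPM, and *S100a11* at 229 and 590 CPM, in *Txnip*-/- and WT cells. Position near the deleted gene and the loss of *Txnip* cannot be told apart in these libraries.

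Other genes of the same cluster were scarce. *Gstm4* was counted 29, 37 and 11 times in *Txnip*-/- and 26, 44 and 37 times in WT libraries, *Gstm7* 9, 6 and 23 against 8, 16 and 6 times, and *Gstm3* and *Gstm6* at most 3 times in any library. Elsewhere on chromosome 3, *Gclm* lies 25.68 Mb and *Slc7a11* 46.67 Mb from *Txnip*.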
